A study of Arabidopsis thaliana with 24 samples.

Results

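The genes AT3G62950, AT4G15680 and AT4G15690 encode CC-type glutaredoxins, and were chosen by their lower intensity in Arabidopsis shoots given sucrose. They were found through the probe annotation, which pairs each with a single probe set, 251196_at for AT3G62950, 245392_at for AT4G15680 and 245505_at for AT4G15690. They make up 3 of the 12431 genes measured here and 3 of the 17 CC-type glutaredoxin genes measured. A gene counts as measured where the annotation gives it a probe set of its own that reached an intensity of 40 on any array. Of the 22810 probe sets, 8794 are not listed in that annotation. The fall of the 3 genes with sucrose chose them, so it is given below as a description with no test. Genotype, light and the interactions were tested.

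Glutaredoxins are small oxidoreductases that use glutathione to reduce disulfide bonds or to remove glutathione from proteins. The CC type, named for the paired cysteines of its active site and also called ROXY, occurs in land plants beside the CPYC and CGFS types that plants share with other organisms. Several CC-type proteins bind TGA transcription factors, and ROXY1 and ROXY2 act in petal and anther development. Transcripts of a number of CC-type genes are known to respond to nitrate.

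Expression was measured with ATH1 arrays on shoots of sdg8-5 and WT plants that were 3 weeks old and had grown hydroponically with 1% sucrose and 2 mM KNO3. All plants first spent 24 h in the dark in medium that lacked sucrose but held KNO3, and were then treated for 2 h with (+C) or without (-C) 1% sucrose and with (+L) or without (-L) light of 70 µE. Each of the 8 conditions, +C+L, +C-L, -C+L and -C-L in sdg8-5 and in WT, has 3 arrays from separate biological replicates. sdg8-5, earlier named cli186, is a single mutant line that lacks SDG8, a histone methyltransferase gene, together with the first exons of the neighbouring gene AT1G77310, and WT is the unmutagenized parent with a pASN1::HPT2 reporter transgene. Neither deleted gene is listed in the probe annotation used here, so the genotype labels were not checked on them.

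Levels are given as linear MAS5 intensities, scaled to a trimmed mean of 500 on every array. The study's cutoff for low expression was an intensity of 40, and 77.3% to 81.2% of the probe sets reached it on each array. Of the shoot markers, 6 of 13 leaf genes were measured and all 6 reached 40 on every array, as RCA (Rubisco activase) did with 4418 to 18348. Among 9 root markers 3 were measured, of which PYK10 lay between 3406 and 8568 and the root hair expansins EXPA7 and EXPA18 reached 40 on 15 and 16 of 24 arrays. The summed level of the 3 was 3484 to 8581 in sdg8-5 and 4190 to 8801 in WT. Of 10 flower and pollen markers 2 were measured, and AMS, an anther gene, and AT5G07230 reached 40 on 4 and 3 of 24 arrays. In whole shoots, fewer cells of a type and less RNA per cell cannot be told apart.

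AT3G62950 was under the cutoff on most arrays with sucrose. Its intensities in +C+L were 1.06, 2.69 and 1.60 in sdg8-5, against 1.52, 3.63 and 1.45 in WT. In +C-L they were 1.94, 1.20 and 7.44 in sdg8-5, against 47.0, 8.65 and 80.6 in WT. Of the 12 arrays with sucrose, 10 lay under 40, and the other two were WT arrays in the dark.

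The same probe set read 183, 311 and 161 in sdg8-5 in -C+L, against 40.2, 76.6 and 107 in WT. In -C-L it read 678, 808 and 255 in sdg8-5, against 386, 384 and 313 in WT. All 12 arrays without sucrose reached 40, and the levels without sucrose were highest in the dark in both genotypes.

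Averaged over genotype and light, AT3G62950 had a log2 difference of -5.81 (SE 0.37) between +C and -C. Within conditions it was -6.98 in sdg8-5 in light, -7.65 in sdg8-5 in the dark, -5.11 in WT in light and -3.49 in WT in the dark. The groups with and without sucrose did not overlap in any of these 4 pairs. Of all genes, 8.21% were apart in that direction in sdg8-5 in light, 11.1% in sdg8-5 in the dark, and 8.29% in WT in light and likewise in the dark. Since intensities under 40 carry little information on level, the fall was also computed with every such value set to 40. It was then at least 5.23-fold in sdg8-5 in light, at least 13.0-fold in sdg8-5 in the dark and at least 1.72-fold in WT in light. In WT in the dark, where only replicate 2 with sucrose lay under 40, the same calculation gave 6.74-fold.

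**Figure D1:**
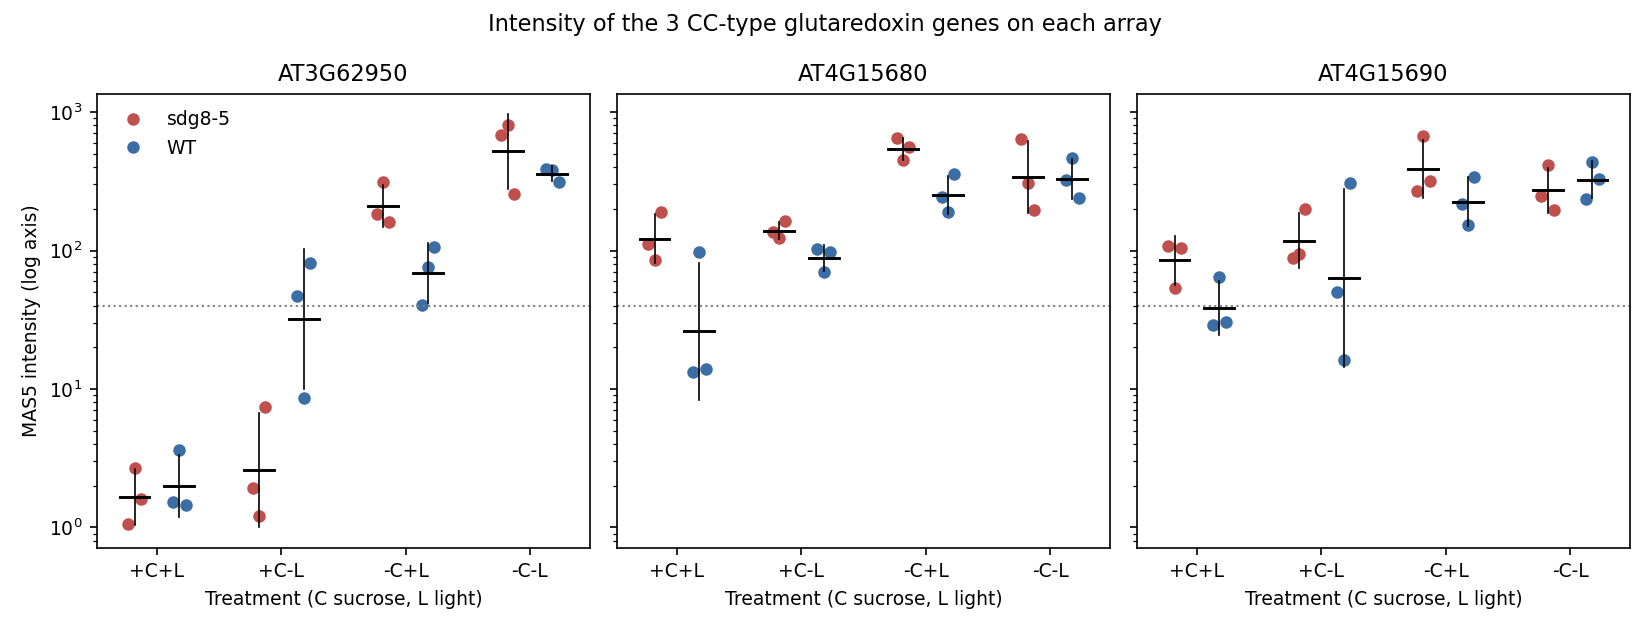
Intensity (log axis) of each gene in the 4 treatments, with 1 point per array for sdg8-5 (red) and WT (blue), the geometric mean as a horizontal line, 1 SD of the log2 values as a vertical line and the cutoff of 40 dotted. AT3G62950 lies under 40 on 10 of the 12 arrays with sucrose and on none of the 12 without.

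AT4G15680 read 112, 85.1 and 190 in sdg8-5 in +C+L, against 13.2, 97.1 and 13.9 in WT. In +C-L it read 135, 123 and 162 in sdg8-5, against 103, 69.5 and 96.9 in WT. All 3 sdg8-5 arrays were above all 3 WT arrays in +C-L, while in +C+L WT replicate 2 lay among the sdg8-5 values and the other two WT arrays lay under 40.

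Without sucrose, AT4G15680 read 645, 448 and 559 in sdg8-5 in light, against 242, 189 and 355 in WT. In the dark it read 642, 305 and 197 in sdg8-5, against 322, 467 and 241 in WT. The genotypes were apart in light and overlapped in the dark, where the sdg8-5 arrays differed from each other by 3.25-fold.

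The averaged sucrose difference of AT4G15680 was -2.15 (SE 0.29). It was -2.16 in sdg8-5 in light, -1.28 in sdg8-5 in the dark, -3.28 in WT in light and -1.90 in WT in the dark. The arrays were apart in that direction in all 4 pairs, beside the shares of all genes given above for AT3G62950, and this was the contrast that chose the genes. Of the 12 arrays with sucrose 2 lay under 40, both of them WT in light, and with values set to 40 the fall there was 4.71-fold (log2 difference -2.24) in place of 9.69-fold.

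AT4G15690 read 109, 53.4 and 105 in sdg8-5 in +C+L, against 28.8, 64.7 and 30.7 in WT. In +C-L it read 87.9, 93.6 and 200 in sdg8-5, against 50.4, 16.2 and 306 in WT. The WT arrays of +C-L spanned 18.9-fold, the widest spread of this gene in a condition.

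Without sucrose, AT4G15690 read 269, 669 and 319 in sdg8-5 in light, against 217, 152 and 342 in WT. In the dark it read 248, 413 and 197 in sdg8-5, against 236, 435 and 330 in WT. The genotypes overlapped in all 4 treatments.

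The averaged sucrose difference of AT4G15690 was -2.07 (SE 0.37), and it was -2.19 in sdg8-5 in light, -1.20 in sdg8-5 in the dark, -2.54 in WT in light and -2.36 in WT in the dark. The arrays were apart in light in both genotypes, as in 8.21% of genes in sdg8-5 and 8.29% in WT in the contrast that chose the genes, and overlapped in the dark in both. Of the other CC-type genes, AT4G15700 came closest to these 3, with a sucrose difference of -1.60.

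In the order of the 8 condition means, the 4 conditions without sucrose stood above the 4 with sucrose in AT3G62950, AT4G15680 and AT4G15690, a split that follows from how the genes were chosen. In AT3G62950 the order ran from sdg8-5 -C-L through WT -C-L, sdg8-5 -C+L, WT -C+L, WT +C-L, sdg8-5 +C-L and WT +C+L to sdg8-5 +C+L. All arrays of its 3 lowest conditions were under 40, so that those 3 have no order. Arrays of sdg8-5 -C+L lay below those of WT -C-L, as in 16.8% of genes, and above those of WT -C+L, as in 10.3%, and arrays of sdg8-5 +C-L lay below those of WT +C-L, as in 12.1%. Neighbours overlapped in the other 4 steps. In AT4G15680 sdg8-5 -C+L was highest, followed by sdg8-5 -C-L, WT -C-L and WT -C+L, and then sdg8-5 +C-L, sdg8-5 +C+L, WT +C-L and WT +C+L. Its neighbours were apart at 1 step, with sdg8-5 +C-L below WT -C+L, as in 15.4% of genes. In AT4G15690, led by sdg8-5 -C+L and ended by WT +C+L, every pair of neighbours overlapped.

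Replicates of these genes differed more than those of most genes. The SD of log2 intensity within conditions was 0.95 for AT3G62950, 0.74 for AT4G15680 and 0.94 for AT4G15690, against a median of 0.34 over all genes. These values stood at percentiles 79.8, 71.9 and 79.2 of the genes. The SD of AT3G62950 differed between conditions, at 1.36 in sdg8-5 +C-L and 1.68 in WT +C-L, where 4 of 6 arrays were under 40, and 0.17 in WT -C-L, while the fit used 1 spread for all. With values under 40 set to 40 the SE of its averaged differences was 0.19 in place of 0.37.

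AT3G62950 was lower in light. Averaged over genotype and sucrose the fall was 4.24-fold against the dark (log2 difference -2.08, SE 0.37, adjusted p = 0.00018 by limma with Benjamini-Hochberg adjustment). An exact two-sided permutation of the light labels within conditions gave p = 0.00025. It was the single one of the 3 genes called for light, where 16.3% of all genes were called lower and 17.3% higher. With values under 40 set to 40 the log2 difference was -1.03 (adjusted p = 0.00018).

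The difference was also present where every array was above 40. Without sucrose, AT3G62950 was 3.59-fold lower in light (log2 difference -1.85, SE 0.53, adjusted p = 0.0113), where 12.7% of genes were called lower. The exact permutation test gave p = 0.01, with a smallest possible value of 0.005. Without replicate 1 of every condition this difference was -1.48 with an adjusted p of 0.215. In WT without sucrose the arrays in light were all below those in the dark (-2.38, SE 0.74, adjusted p = 0.0293), as those of 15.6% of genes were, with 8.82% called lower. This call was lost without replicate 1 or replicate 2 of every condition, without any single one of the 3 WT -C-L arrays, and without WT -C+L replicate 1 or 2 (-2.48 to -1.94, adjusted p 0.0549 to 0.327), and with the level of a 25S ribosomal RNA probe set as a covariate (-2.16, adjusted p = 0.482). In sdg8-5 without sucrose they overlapped (-1.31, SE 0.74, adjusted p = 0.256). The test of the difference between genotypes in this light response gave 1.07 (SE 1.05, adjusted p = 0.998), and 0.0161% of genes passed it. With sucrose the light difference in WT was -4.00 (SE 0.74, adjusted p = 0.00108), with arrays apart as in 15.3% of genes and 6.60% called lower. It was -3.52 (adjusted p = 0.0919) without replicate 1 of every condition. All 3 WT arrays in light lay under 40 there, and with values set to 40 it was -0.41 (adjusted p = 0.538).

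AT4G15680 and AT4G15690 did not pass the test for light. Their averaged log2 differences were -0.41 (SE 0.29, adjusted p = 0.300) with a 95% interval of -1.02 to 0.20 for AT4G15680, and -0.30 (SE 0.37, adjusted p = 0.576) with an interval of -1.07 to 0.47 for AT4G15690. Without sucrose they were 0.15 (SE 0.41) for AT4G15680 and -0.01 (SE 0.52) for AT4G15690. In WT with sucrose the light difference of AT4G15680 was -1.76 (SE 0.58, adjusted p = 0.0510). WT +C+L replicate 2 stood apart from the other two arrays there, and without it the difference was -2.71 (adjusted p = 0.00038) in WT with sucrose and -0.65 (adjusted p = 0.0141) on average. Both remaining arrays were under 40, at 13.2 and 13.9, and with values set to 40 and all arrays kept the difference in WT with sucrose was -0.72 (adjusted p = 0.279).

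Arrays in light also differed from arrays in the dark in a control. The probe set for 25S ribosomal RNA was 7.92-fold lower in light, 2.95-fold higher in sdg8-5 and 1.99-fold lower with sucrose. The summed level of the 6 leaf markers was 30544 to 55246 in light and 14646 to 29168 in the dark, and 5 of the 6 rose in light. The part of the leaf markers in the fall of AT3G62950 was not tested. In a fit with the log2 value of 25S as a covariate, the light difference of AT3G62950 was -1.90 (adjusted p = 0.317) and its light difference without sucrose -1.65 (adjusted p = 0.468).

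**Figure D2:**
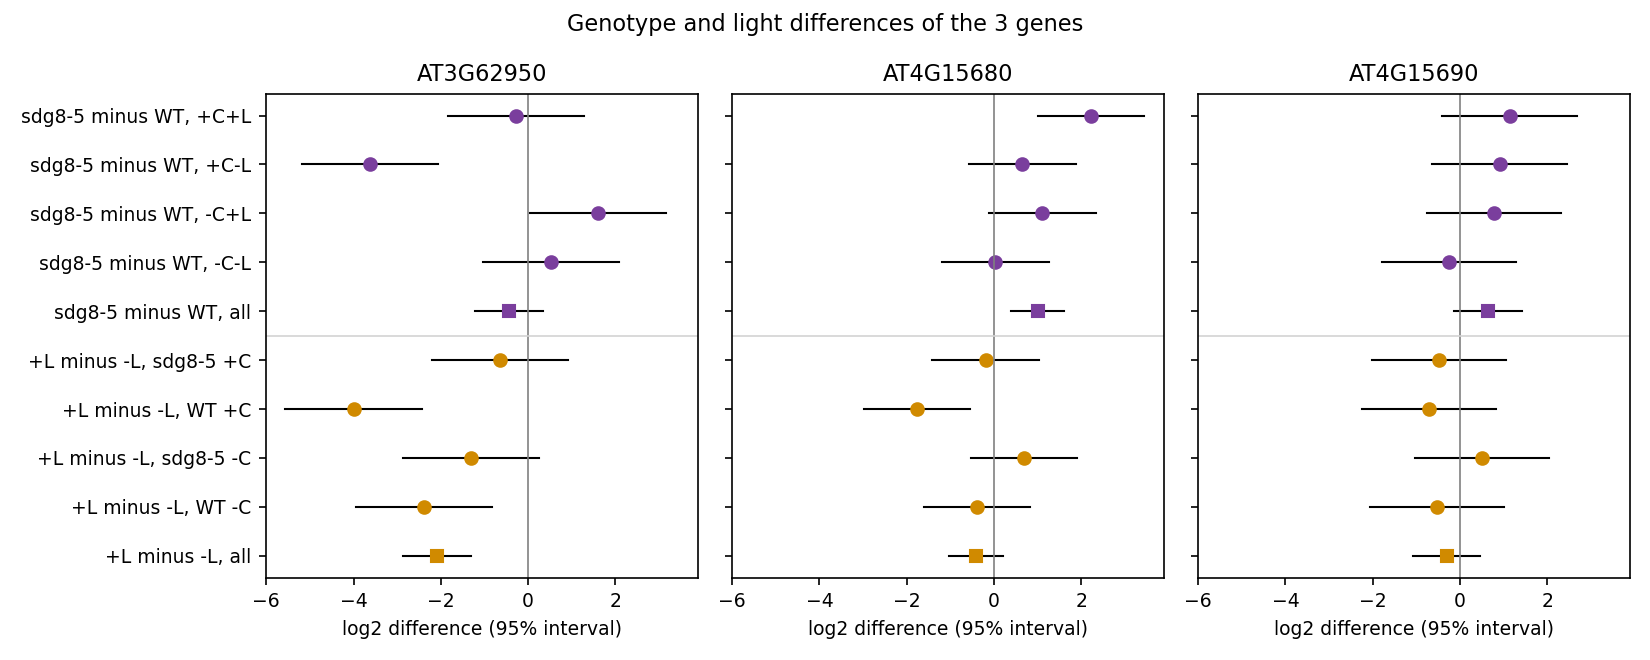
Log2 differences with 95% intervals from the limma fit, sdg8-5 minus WT (purple) and light minus dark (orange), within each combination of the other factors (circles) and averaged over them (squares). The light difference of AT3G62950 averaged -2.08, and the genotype difference of AT4G15680 averaged 1.00.

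The genotype difference was tested next. AT4G15680 was higher in sdg8-5, with a mean of 300 ± 215 in sdg8-5 and 184 ± 144 in WT over all treatments (SD, n = 12 each). The averaged difference was 2.00-fold (log2 1.00, SE 0.29, adjusted p = 0.0203 by limma), and 8.49% of all genes were called higher in sdg8-5 and 10.1% lower. The exact permutation of genotype labels within treatments gave p = 0.00465. Of the 12 WT arrays 2 lay under 40, both in +C+L, and of the 12 sdg8-5 arrays 0 did. In the treatments without sucrose, where no array was under 40, the difference was 0.57 (SE 0.41, adjusted p = 0.466 by limma). The exact permutation there gave p = 0.145.

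By treatment, the difference of AT4G15680 between sdg8-5 and WT was 2.22 (SE 0.58, adjusted p = 0.0545) in +C+L, 0.65 (SE 0.58) in +C-L, 1.11 (SE 0.58, adjusted p = 0.432) in -C+L and 0.03 (SE 0.58) in -C-L. None of these passed, beside 0.676% of genes called higher in +C+L and 0.547% in -C+L. The value in +C+L lay near the threshold. Its adjusted p was 0.0292 when probe sets had to reach 100 on 3 arrays and 0.0283 with trend and robust estimation. With a block for the bioC spike-in signal it was 0.0446. In 9 of 12 alternatives the value stayed uncalled, as with a replicate block (adjusted p = 0.0716). Without WT +C+L replicate 2, which left WT arrays at 13.2 and 13.9, the difference was 3.17 (adjusted p = 0.00073). In 24 of 27 fits with arrays left out the difference was not called (adjusted p up to 0.549). With values under 40 set to 40 it was 1.18 (adjusted p = 0.140). The sdg8-5 arrays were all above the WT arrays in +C-L and in -C+L, as were those of 9.08% and 10.3% of genes. The difference in light exceeded that in the dark by 1.32 (SE 0.58, unadjusted p = 0.0353, adjusted p = 0.755), which did not pass the threshold of 0.15 used for interactions of genotype.

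The call was lost in smaller sets of arrays. Without replicate 1 of every condition the genotype difference of AT4G15680 was 0.77 (adjusted p = 0.238), and without replicate 3 it was 0.89 (adjusted p = 0.162). With the 25S covariate it was 0.97 (adjusted p = 0.273). The summed leaf markers were 14646 to 43497 in sdg8-5 and 19925 to 55246 in WT, with 4 of 6 called lower in sdg8-5, and their part in this difference was not tested.

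AT4G15690 had a mean of 230 ± 175 in sdg8-5 and 184 ± 147 in WT (SD, n = 12 each). Its difference of 0.64 (SE 0.37, adjusted p = 0.246, 95% interval -0.13 to 1.41) did not pass the test. Without WT +C-L replicate 3, the array that read 306, it was 0.93 (adjusted p = 0.0196). The difference was 1.14 in +C+L, 0.91 in +C-L, 0.78 in -C+L and -0.25 in -C-L, each with an SE of 0.73.

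AT3G62950 had no averaged genotype difference past the threshold (-0.44, SE 0.37, adjusted p = 0.460), and the value turned to 0.43 (adjusted p = 0.116) with values under 40 set to 40. In the treatments without sucrose, where no array was under 40, it averaged 1.07 (SE 0.53, adjusted p = 0.253; 3.00% of genes were called higher), with an exact permutation p of 0.025. With values under 40 set to 40 in the whole table, which narrows the estimated spread of this gene, that same 1.07 had an adjusted p of 0.0130.

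By treatment the arrays of the genotypes lay apart in opposite directions in -C+L and +C-L, and the difference passed the test in +C-L. In -C+L all sdg8-5 arrays were above all WT arrays, as in 10.3% of genes (log2 difference 1.60, SE 0.74, adjusted p = 0.362, and 0.0214 with values under 40 set to 40). No array of -C+L lay under 40, so that setting left the 1.60 as it was and only narrowed the estimated spread. In +C-L all sdg8-5 arrays were below all WT arrays, as in 12.1% of genes (-3.63, SE 0.74, adjusted p = 0.00777), where 3.20% of genes were called lower. The 3 sdg8-5 arrays and 1 of the 3 WT arrays of +C-L lay under 40, and with values set to 40 this difference was -0.41 (adjusted p = 0.605). The call was also lost without replicate 1 of every condition (-3.14, adjusted p = 0.185), without replicate 3 (-3.72, adjusted p = 0.0546) and without sdg8-5 +C-L replicate 2 (-3.07, adjusted p = 0.0529). In -C-L the difference was 0.53 and in +C+L -0.27, with arrays of the genotypes overlapping in both.

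None of the interaction terms passed for the 3 genes. The genotype by sucrose term of AT3G62950 was -3.02 (SE 0.74, unadjusted p = 0.000745, adjusted p = 0.675), where 0% of all genes were called, and its genotype by light term was 2.21 (SE 0.74, unadjusted p = 0.00809, adjusted p = 0.597), where 0.0161% were called. With values under 40 set to 40 these were -1.27 (adjusted p = 0.610) and 0.74 (adjusted p = 0.755).

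The sucrose by light term of AT3G62950 depended on the low values. It was -0.47 (SE 0.74, adjusted p = 0.881) in the log2 fit, and 1.64 (SE 0.37, adjusted p = 0.0472) with values under 40 set to 40. That setting put all arrays of +C+L and of sdg8-5 +C-L at 40. With sucrose it left no light difference in sdg8-5 and -0.41 in WT, and it narrowed the estimated spread. The sign and the call of 1.64 thus follow largely from the setting and from the fall in light without sucrose. The level without sucrose was lower in light, at 218 ± 81.1 in sdg8-5 and 74.5 ± 33.4 in WT, than in the dark, at 580 ± 289 in sdg8-5 and 361 ± 41.3 in WT (SD, n = 3 each). For this term 0.241% of genes were called. AT4G15680 had -1.13 (SE 0.58, adjusted p = 0.517) and AT4G15690 -0.58 (SE 0.73, adjusted p = 0.846).

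The CC-type family as a whole moved in both directions. Of 21 genes listed 17 were measured, 10 with a sucrose difference below 0 and 7 above, with a median of -0.18 beside 0.05 over all genes. These sucrose values are descriptions, since 8.19% of all genes were called lower and 12.3% higher in the contrast that chose the 3 genes, and 10 of 12431 genes (0.0804%) were lower by more than 2 on the log2 scale. After the 3 genes came AT4G15700 at -1.60, AT4G15660 at -1.43, AT5G18600 at -1.35, ROXY2 at -1.02 and AT3G62930 at -0.74. Under 40 lay 6 of 12 arrays with sucrose and 0 of 12 without for ROXY2. The same counts were 5 and 2 for AT3G62930, and 2 and 0 for AT4G15660. At the other end stood AT1G03020 at 1.26, though it reached 40 on 3 of 12 arrays with sucrose and 1 of 12 without, AT4G33040 at 0.76, AT2G30540 at 0.71, AT5G11930 at 0.60 and ROXY1 at 0.54. GRX480, whose protein acts with TGA factors on jasmonate-responsive genes, was at -0.18, and AT1G06830, AT3G62960 and AT2G47880 lay within 0.1 of 0.

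**Figure D3:**
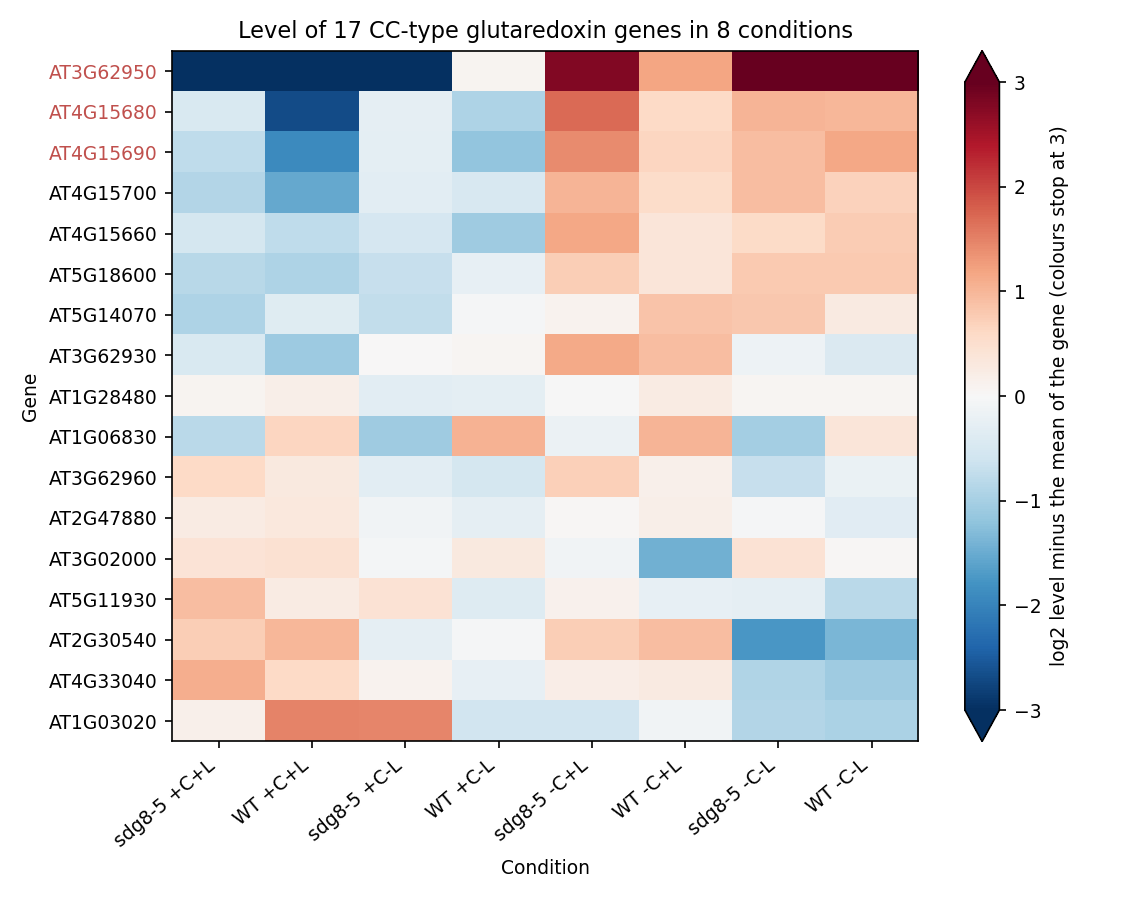
Level of the 17 measured CC-type genes in the 8 conditions, as the mean log2 intensity of the condition minus the mean of that gene over the 8 conditions (red higher, blue lower, colours stop at 3), ordered by sucrose difference. The rows of AT3G62950, AT4G15680 and AT4G15690 are at the top, with AT4G15700, AT4G15660 and AT5G18600 beneath them.

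In light, 5 of the 17 rose and 3 fell, beside 17.3% and 16.3% of all genes. AT4G33040 rose by 1.06 (SE 0.09, adjusted p = 4.8e-08), AT2G30540 by 1.70 (SE 0.29, adjusted p = 0.00013), AT3G62960 by 0.87 (SE 0.18), AT5G11930 by 0.52 (SE 0.08) and AT2G47880 by 0.39 (SE 0.09). For AT2G30540, 4 of 12 arrays in the dark lay under 40 and 0 of 12 in light. Beside AT3G62950, AT4G15700 fell by 0.42 (SE 0.15, adjusted p = 0.0365) and AT5G18600 fell by 0.32 (SE 0.10, adjusted p = 0.0139). The median light difference was 0.25 in the family and 0.01 over all genes.

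Between genotypes, 2 of the 17 were higher and 1 was lower in sdg8-5, beside 8.49% and 10.1% of all genes. Beside AT4G15680, AT5G11930 was higher by 0.60 (SE 0.08, adjusted p = 5.7e-05), and AT1G06830 fell by 1.54 (SE 0.33, adjusted p = 0.00291) to 52.3 ± 36.1 in sdg8-5, against 130 ± 40.1 in WT (SD, n = 12 each). AT1G06830 lay under 40 on 8 of 12 sdg8-5 arrays and 0 of 12 WT arrays, so the size of its fall rests partly on values under the cutoff. The family median was 0.15 and the median of all genes 0.01. In the limma fit 0 of 17 passed for any interaction, and at an unadjusted p under 0.05 there were 3 for genotype by light (AT3G62950, AT4G15680 and AT5G18600), 2 for genotype by sucrose (AT3G62950 and ROXY1), 4 for sucrose by light (AT2G30540, ROXY1, AT3G62930 and AT4G15700) and 0 for the term of all 3 factors. Of all genes, 6.3%, 4.74%, 10% and 4.34% had such a p for these terms in the same order.

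**Figure D4:**
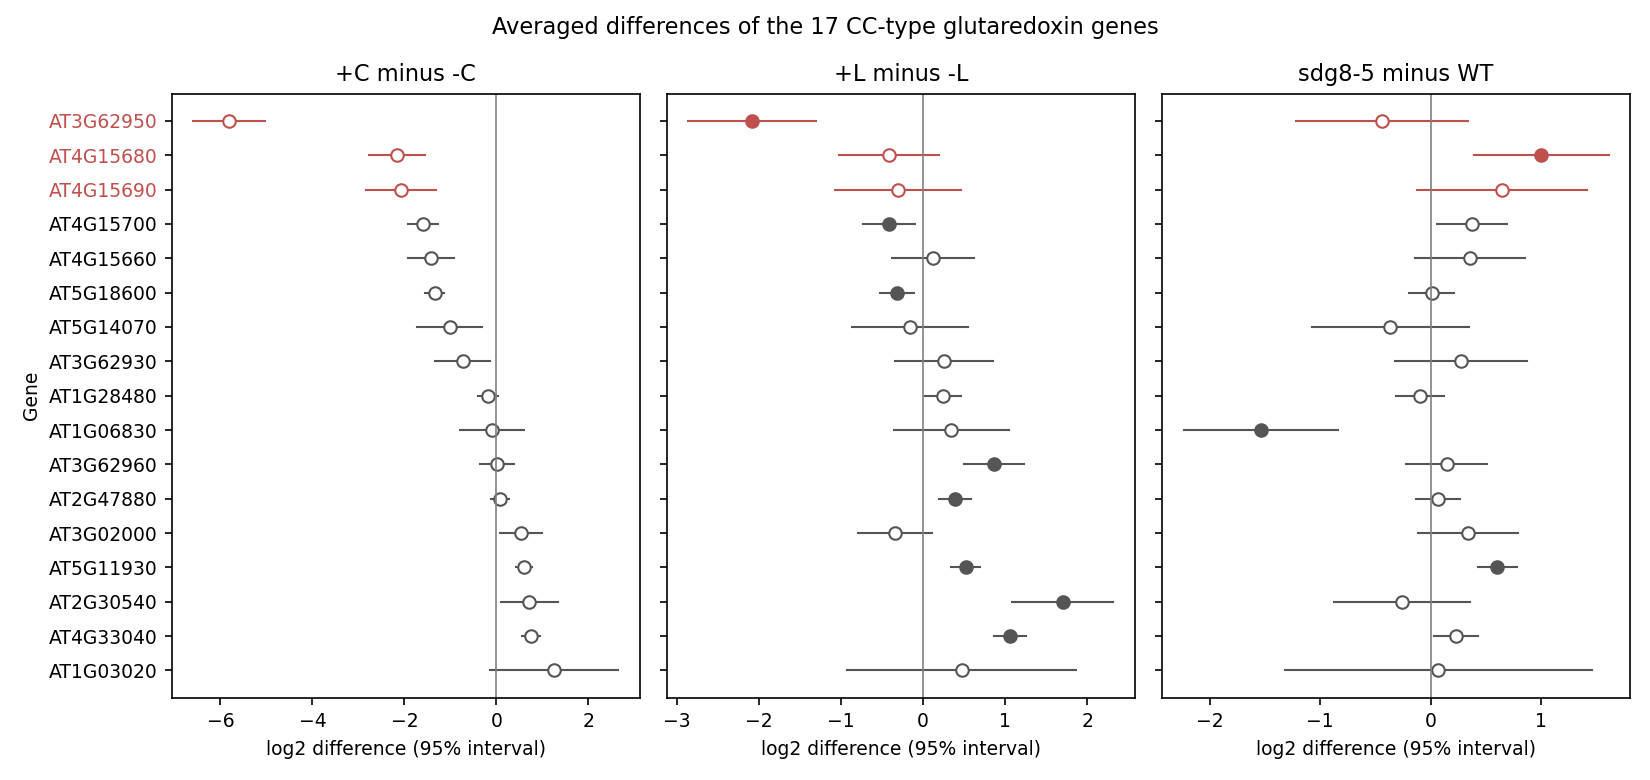
Averaged log2 differences with 95% intervals for the 17 CC-type genes, for sucrose, light and genotype, ordered by the sucrose difference, with AT3G62950, AT4G15680 and AT4G15690 in red. Filled points passed the test for light (8 genes) or genotype (3 genes), and sucrose is drawn open throughout as a description.

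Position in the genome sets AT4G15680 and AT4G15690 beside each other. In the TAIR10.1 RefSeq annotation they lie on chromosome 4 in a run of 5 neighbouring CC-type genes, AT4G15660 to AT4G15700, of which 4 were measured. The 12 arrays with sucrose and the 12 without had medians of 61.0 and 172 for AT4G15660 and of 172 and 463 for AT4G15700. For AT4G15700 the highest array with sucrose, 230, was below the lowest without, 349. The share of all genes apart in this way was not counted. Sucrose was also the contrast that chose AT4G15680 and AT4G15690, so these medians and ranges are descriptions. Over the 24 arrays the log2 values of AT4G15680 had a Pearson correlation of 0.92 with AT4G15700, 0.83 with AT4G15660 and 0.82 with AT4G15690. After subtraction of condition means these were 0.70, 0.73 and 0.39. The annotation gives each of these probe sets 1 gene, but sequence shared between tandem copies could let a transcript hybridize to a neighbour's probes, and this could not be examined here.

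AT3G62950 lies on chromosome 3 between AT3G62940, which is not of the CC type, and the CC-type gene AT3G62960. The neighbours had unlike values. AT3G62960 had a sucrose difference of 0.01 and rose in light by 0.87 (SE 0.18, adjusted p = 0.00062), where AT3G62950 had -5.81 and fell by 2.08. In -C-L the sdg8-5 arrays of AT3G62960 were all below the WT arrays, as in 10.4% of genes (-0.48, adjusted p = 0.553), and in -C+L they were all above, as in 10.3% (0.57, adjusted p = 0.527). Neither passed the test. The log2 values of the neighbours correlated at -0.14 over the 24 arrays and at 0.67 after subtraction of condition means. In WT +C-L, replicate 2 was the lowest array for both, at 47.3 for AT3G62960 and 8.65, under the cutoff, for AT3G62950. The SD of log2 intensity of AT3G62960 was 1.14 there and 0.06 to 0.29 in the other conditions. The part of this array in the 0.67 was not tested.

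Correlations among the 3 genes were lower once arrays with sucrose were left out. AT3G62950 correlated at 0.73 with AT4G15680 and at 0.76 with AT4G15690 over the 24 arrays, and at 0.35 and 0.44 over the 12 arrays without sucrose. AT4G15680 and AT4G15690 correlated at 0.82 over 24 arrays and at 0.45 over those 12. These points share arrays, scaling and the contrast by which the genes were chosen.

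The genes with profiles most like each member were found by Pearson correlation of log2 intensity over the 24 arrays among 9699 genes with a mean of at least 40. For AT3G62950 they were AT3G49790 and AT4G19160 (0.94 each), then AT3G29240, AT5G59080 and the CC-type gene AT5G18600 (0.93 each). For AT4G15680 they were AT4G15700 (0.92), AT3G52480 (0.84), AT4G15660 (0.83), AT1G72820 (0.81) and the tetraspanin TET5 (0.81). For AT4G15690 they were AT4G15700 (0.86), AT4G15660 (0.82), AT1G33790 (0.78), AT5G65660 (0.78) and AT3G52060 (0.76). Within conditions the correlation of AT3G62950 with AT5G18600 was 0.06, and over the 8 condition means it was 0.98. The other values within conditions were 0.26 (AT3G29240) to 0.48 (AT4G19160) for AT3G62950. They were 0.25 (AT1G72820) to 0.73 (AT4G15660) for AT4G15680, and 0.14 (AT3G52060) to 0.65 (AT1G33790) for AT4G15690. Every gene ranked here had a sucrose difference below 0. That contrast chose the 3 genes, so the rankings are descriptions.

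Glutaredoxins of another type and genes of glutathione metabolism were also examined. Of 6 CPYC-type glutaredoxins 5 were measured. GRXC1 was higher in sdg8-5 by 0.37 (SE 0.08, adjusted p = 0.00246) and fell in light by 0.41 (SE 0.08, adjusted p = 0.00034), GRXC2 fell by 0.52 in sdg8-5 (SE 0.09, adjusted p = 0.00044), and AT1G77370 fell by 0.55 in light (SE 0.18, adjusted p = 0.0211). Both glutathione reductases measured, out of 4 genes of glutathione synthesis and reduction, rose in light, GR1 by 0.49 (SE 0.08) and GR by 0.35 (SE 0.07). The TGA factors, the CGFS-type glutaredoxins, the h-type thioredoxins and the genes of nitrate uptake and assimilation were not analysed here, since none was paired with a probe set of its own in the annotation used.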

How the data were processed

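The authors extracted RNA from shoots, hybridized it to ATH1 arrays and normalized the scans with MAS5 in R, and the deposited values are intensity values on a linear scale for 22810 probe sets on 24 arrays, 3 in each of 8 conditions. The version of MAS5 and a genome build are not given in the sources used here. Following the cutoff of the study's methods, the 1258 probe sets that never reached 40 were dropped, which left 21552. Their log2 values were fitted in R 4.3.3 with limma 3.58.1 (lmFit, eBayes), as 8 condition means with 16 residual degrees of freedom, and adjusted p is that of Benjamini and Hochberg across these probe sets. Differences are sdg8-5 minus WT, +C minus -C and +L minus -L. The thresholds for adjusted p were 0.05, and 0.15 for interactions of genotype. Genes came from 12568 kept probe sets annotated to 1 gene, the one with the highest mean for the 126 genes with several. Arrays have no count of reads, so that their number, 3 a condition, limits the precision. Replicate arrays correlated at 0.914 to 0.942.

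Single values of the 3 genes were tested by exact two-sided permutation within conditions (12 tests, 160000 or 400 relabellings, unadjusted). The 3 genes, the gene lists and the family were chosen with earlier results of these data known. Named genes are the 3 genes, all measured CC-type genes and, outside the 3, the 5 genes most correlated with each of them. Up to 4 genes past a threshold were also named from each of the other lists. Membership of the lists came from general knowledge of the families. The alternatives were 2 other filters, log2 of intensity plus 16, quantile normalization, centring on the median, the three-way ANOVA of the methods on log2 values and on intensities, trend and robust estimation, a replicate block, the 25S control as a covariate, a block of 2 groups of 12 arrays by bioC spike-in signal (8 sdg8-5 and 4 WT arrays in the higher group), exact permutation, and omission of each replicate set or array in turn. Setting intensities under 40 to 40 and the genotype by light term without sucrose were added after the values were seen. The procedure was tested on simulated data. Figures were drawn with Python 3.11.15.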

Additional observations from a re-analysis of the deposited data

Results flagged for a closer look

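The arrays of AT3G62950 lay apart between genotypes in opposite directions in +C-L and -C+L. The difference of sdg8-5 minus WT was -3.63 on the log2 scale in +C-L (adjusted p = 0.00777), with every sdg8-5 array below every WT array, as in 12.1% of genes, and 1.60 in -C+L (adjusted p = 0.362), with every sdg8-5 array above every WT array, as in 10.3% of genes. The 3 sdg8-5 arrays and WT replicate 2 of +C-L were under 40, and with values set to 40 the difference there was -0.41 (adjusted p = 0.605). The contrast between these 2 treatments was not tested itself.

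AT3G62960 had a difference of -0.48 in -C-L, with every sdg8-5 array below every WT array, as in 10.4% of genes. In -C+L it had one of 0.57, with every sdg8-5 array above every WT array, as in 10.3% of genes. The difference between these 2 treatments, its genotype by light term without sucrose, was 1.05 (unadjusted p = 0.0480, adjusted p = 0.998) and did not pass, and over all treatments its genotype by light term was 0.58 (adjusted p = 0.866).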

How the results depend on the processing

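Over 40 results and 13 alternatives, 443 of 489 values kept their direction and side of the threshold, as did 1036 of 1080 values with arrays left out. Log2 of intensity plus 16 changed AT3G62950 to 0.10 for genotype, 0.85 for sucrose by light, 0.95 for genotype without sucrose (adjusted p = 0.0499) and -3.38 for sucrose, and the three-factor term of AT4G15680 to -0.0057. Setting intensities under 40 to 40 changed AT3G62950 to 0.43 for genotype, 1.64 for sucrose by light (adjusted p = 0.0472), -0.66 for the three-factor term and -2.41 for sucrose, left 1.07 for genotype without sucrose (adjusted p = 0.0130), and changed the three-factor term of AT4G15680 to -0.55. The exact permutation put that 1.07 at p = 0.025. For AT3G62950, the adjusted p-values with values set to 40 rest on a spread narrowed by arrays with sucrose held at 40. The ANOVA on intensities, in intensity units, gave AT3G62950 80.2 for genotype, -17.0 for genotype by light, -75.5 for genotype by light without sucrose and 302 for sucrose by light. It gave AT4G15680 116 for genotype (adjusted p = 0.0701), 7.02 for light, -94.7 for genotype by sucrose and -213 for the three-factor term, and AT4G15690 -41.6 for genotype by sucrose and 18.4 for light without sucrose. Centring on the median gave AT4G15680 -0.013 for light without sucrose.

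With the 25S covariate AT3G62950 had -1.90 (adjusted p = 0.317) for light and -1.65 (adjusted p = 0.468) for light without sucrose, AT4G15680 0.97 (adjusted p = 0.273) for genotype, and AT4G15690 0.72 for light, -0.33 for genotype without sucrose and 1.08 for light without sucrose. The family then had 1 gene higher and 0 lower in sdg8-5, and 1 higher and 0 lower in light. Of all 12431 genes, 279 were then called higher and 469 lower in sdg8-5, and 477 higher and 368 lower in light. In the fit without the covariate these counts over all genes were 1056, 1252, 2156 and 2032. The cause of these changes was not tested.

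With a replicate set or 1 array left out in turn, the light difference of AT3G62950 stayed between -2.65 and -1.75 (adjusted p up to 0.0385). Ranges of averaged differences and interactions that crossed a threshold or 0 were, for AT3G62950, -1.62 to 0.74 for sucrose by light and -2.21 to -1.48 for light without sucrose (not called without replicate 1). For AT4G15680 they were 0.77 to 1.35 for genotype, -0.65 to -0.17 for light (called without WT +C+L replicate 2), -0.39 to 2.18 for the three-factor term and -0.29 to 0.41 for light without sucrose. For AT4G15690 they were 0.40 to 0.93 for genotype (called without WT +C-L replicate 3), -1.38 to 0.38 for sucrose by light, -2.07 to 1.31 for the three-factor term, -0.12 to 0.61 for genotype without sucrose and -0.21 to 0.19 for light without sucrose. The family counts ranged from 1 to 4 higher and 0 to 1 lower in sdg8-5, and from 4 to 6 higher and 1 to 4 lower in light. Counts over all genes were not made for these sets of arrays. Within single treatments, AT3G62950 ranged from -4.57 to -2.96 for genotype in +C-L (adjusted p up to 0.185), from -2.79 to -1.94 for light in WT without sucrose (up to 0.327, lost in 7 of 27) and from -5.37 to -3.10 for light in WT with sucrose (up to 0.0919, lost without replicate 1). The genotype difference of AT3G62950 in +C-L was -1.46 (with an adjusted p just above the threshold) with log2 of intensity plus 16, and in the ANOVA on intensities it had an adjusted p of 0.865 and the light difference in WT with sucrose one of 0.820. AT4G15680 ranged from 1.44 to 3.43 for genotype in +C+L (adjusted p 0.00073 to 0.549, called in 3 of 27) and from -2.88 to -1.16 for light in WT with sucrose (0.00038 to 0.453, called in 4 of 27).

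The replicate numbers were not treated as pairs, since deviations of arrays with the same number correlated at -0.11 to 0.13. However, 16 of 24 arrays correlated best with their own number, and all 8 replicate 1 arrays lay in the lower and all 8 replicate 3 arrays in the higher bioC group. With a replicate block the light difference of AT3G62950 had an adjusted p of 0.0004 and the genotype difference of AT4G15680 one of 0.0289, and no call of the 3 genes changed. Of the 12 arrays with sucrose 10 lay under 40 for AT3G62950, so that its log2 differences there rest on values under the cutoff.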
